A study of Mus musculus with 52 samples.

Results

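The Hox genes of the mouse were followed in spinal cord, cerebral cortex and muscle of a transgenic model of amyotrophic lateral sclerosis (ALS). They were taken by name: every mouse gene in the count table whose symbol is Hoxa, Hoxb, Hoxc or Hoxd followed by a number only. This gave 39 of the 55401 mouse genes. Every tissue was sampled in 3 arms. The first arm was wild-type FVB/NJ mice given vehicle. The second was mice transgenic for the C71G mutant of human PFN1 given vehicle, and the third the same transgenic line given an artificial microRNA (amiR) against Atxn2, delivered by an adeno-associated virus. PFN1 encodes profilin-1, an actin-binding protein mutated in familial ALS, and Atxn2 encodes ataxin-2, an RNA-binding protein. No arm received a control vector, so virus and amiR cannot be told apart. Nor did any arm carry wild-type human PFN1, so the mutation and the human transgene itself cannot be told apart. The sources used here state neither the promoter that drives the transgene nor how many founders the line came from. Each group had 6 libraries, apart from the wild-type cortex group (5) and the vehicle-treated transgenic group of muscle (5). All wild-type mice were 36 weeks old, and 11 libraries, all transgenic, came from mice of 38 or 39 weeks. The labels do not say from which level of the cord or from which muscle the tissue came, nor which tissues share an animal.

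Hox genes encode homeodomain transcription factors that lie in ordered clusters. Their order along the chromosome, given by the paralog number, follows the order in which they are switched on along the head-to-tail axis of the embryo, so that low numbers reach far forward and high numbers are kept to the tail and the ends of the limbs. In the spinal cord they set motor neuron identity at each level, from the brachial segments, where paralogs such as Hoxc6 and Hoxc8 act, through the thoracic Hoxc9 to the lumbar Hoxc10 and Hoxd10, and their clusters stay under Polycomb repression in the forebrain.

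In GRCm38 coordinates of the GENCODE M21 annotation, the 11 Hoxa genes span 105.3 kb of chromosome 6 (52155590 to 52260880, minus strand). The 10 Hoxb genes span 173.9 kb of chromosome 11 (96194316 to 96368256), the 9 Hoxc genes 115.8 kb of chromosome 15 (102921103 to 103036852) and the 9 Hoxd genes 96.8 kb of chromosome 2 (74668310 to 74765142), all on the plus strand. Neighbouring gene models overlap, which makes some counts uncertain. Hoxd3 shares 62.3% and Hoxd4 52.3% of its exon bases with other genes on the same strand, Hoxa2 15.0% and Hoxd11 10.8%. On the opposite strand, antisense genes cover 52.9% of the exon bases of Hoxb3, 35.0% of Hoxa11 and 20.4% of Hoxa7. The sources used here do not give the strand setting of the counting, so the reads of such pairs may not have been told apart.

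Libraries held 73.22 to 109.3 M (1e6) counts in spinal cord, 67.5 to 90.45 M in cortex and 66.48 to 111.9 M in muscle. Human PFN1 had at least 19040 counts in every transgenic library and at most 1 in every wild-type one, so the arms matched their genotype labels. In spinal cord, 4 libraries (replicates 5 and 6 of the vehicle-treated and 1 and 2 of the treated transgenic arm) carry opposite treatments in their title and their library name. The vector element WPRE had at least 2096 counts in every cord or cortex library titled as treated and 0 in every cord library titled as vehicle. The titles were therefore used, and each cord result below is also given without these 4 libraries where the call differs. In muscle, WPRE had only 1 to 5 counts in the treated libraries and 0 in the vehicle-treated transgenic ones. All 8 motor neuron markers were higher in wild-type cord than in wild-type cortex, and all 9 forebrain markers were lower, as were all 8 motor neuron markers in muscle against cord, where all 3 muscle fibre markers tested were higher.

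In wild-type mice the Hox genes made up 830 ± 62.8 CPM (counts scaled to 1e6 per library; SD, n = 6) in spinal cord, 173 ± 14.4 CPM (n = 6) in muscle and 0.262 ± 0.0933 CPM (n = 5) in cortex. CPM were scaled within each tissue, so these levels are not on a shared scale across tissues. Enough counts for a test were found for 35 members in cord, all but Hoxa13, Hoxb1, Hoxb13 and Hoxd12. In muscle 31 could be tested, all but Hoxb1, Hoxb13, Hoxc12, Hoxc13, Hoxd1, Hoxd11, Hoxd12 and Hoxd13. In cortex none could be tested within the tissue: its 17 libraries held 302 Hox counts in all, 13 members had no count, and the highest member, Hoxb4, had 78. The summed level in cortex was 0.232 ± 0.0364 CPM in vehicle-treated and 0.219 ± 0.120 CPM in treated transgenic mice (n = 6 each), within the wild-type spread.

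**Figure D1:**
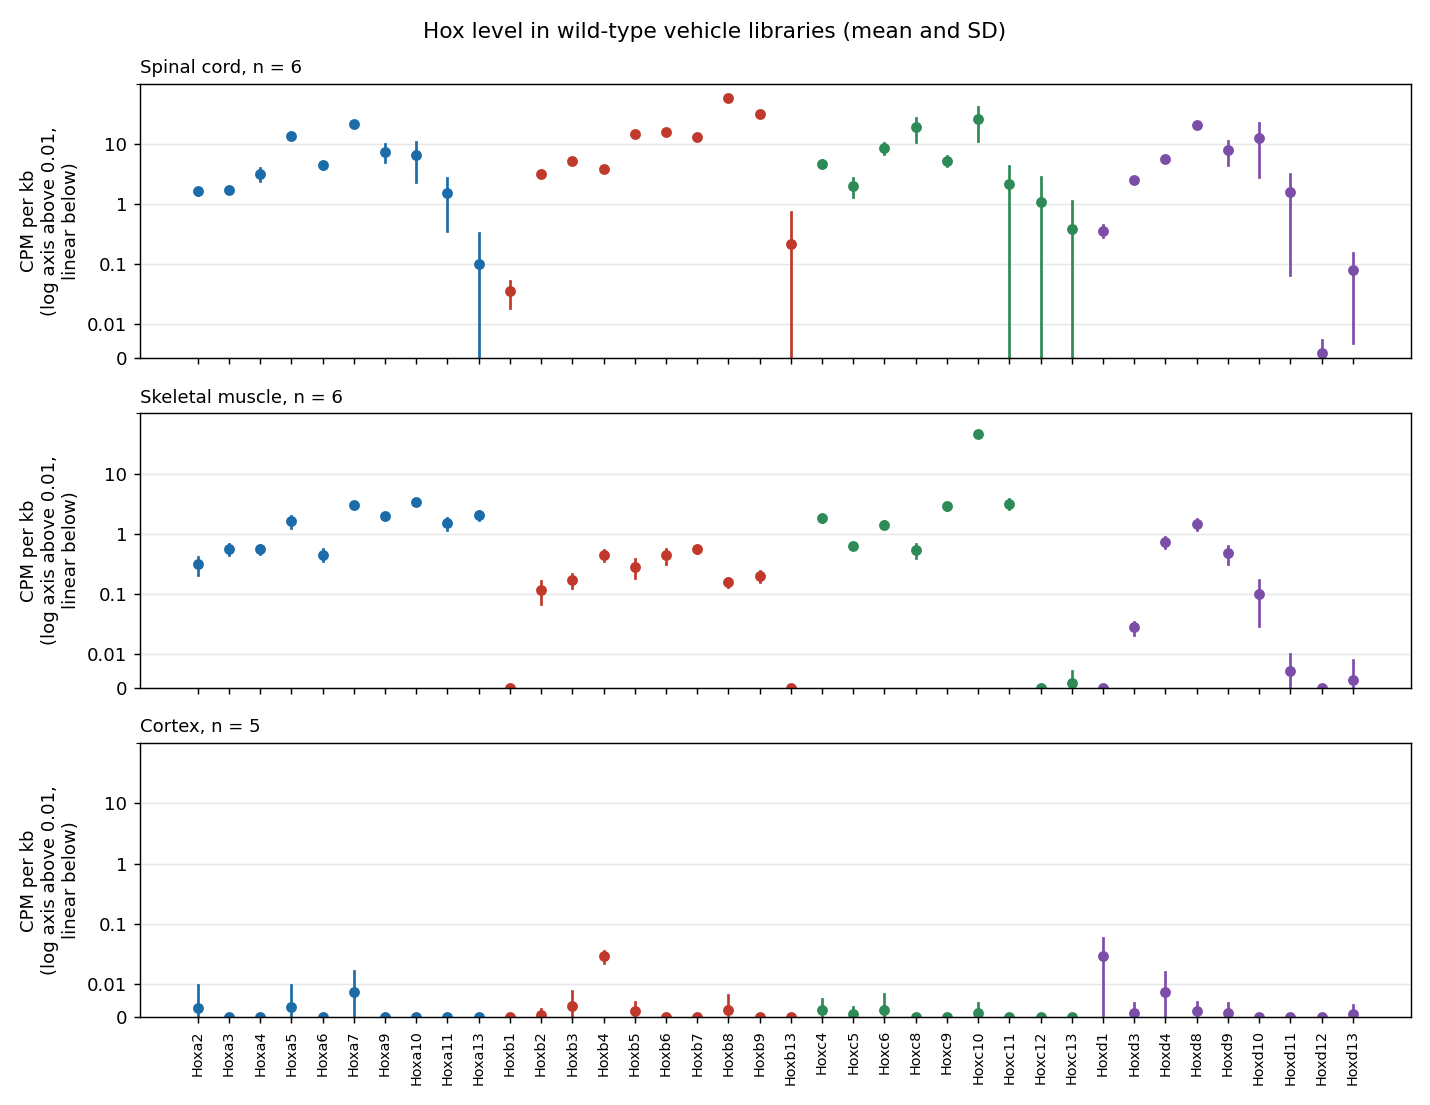
Level of Hox genes in wild-type spinal cord (n = 6), skeletal muscle (n = 6) and cortex (n = 5), as mean and SD in CPM per kb of exon, on an axis that is logarithmic above 0.01 and linear below; colours mark the clusters Hoxa, Hoxb, Hoxc and Hoxd. Hoxb8 stands highest in cord at 57.1, Hoxc10 highest in muscle at 45.6, and every gene shown lies below 0.1 in cortex. CPM were scaled within each tissue.

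Per length, the leading genes of the wild-type cord were Hoxb8 at 57.1 ± 1.16 CPM per kb, Hoxb9 at 30.8 ± 2.26 and Hoxc10 at 25.7 ± 14.6. Hoxa7 (21.6), Hoxd8 (20.3) and Hoxc8 (18.7) came next. Hoxc10 did not differ beyond its spread from Hoxb9 above it or from the 3 genes below it in this order. In muscle 1 gene stood far above the rest: Hoxc10 at 45.6 ± 5.33 CPM per kb, followed by Hoxa10 (3.41), Hoxc11 (3.19), Hoxa7 (3.03), Hoxc9 (2.87) and Hoxa13 (2.08). The leading clusters differed as well. In wild-type cord the summed level was 364 CPM for Hoxb, 177 for Hoxa, 160 for Hoxc and 129 for Hoxd, while in muscle it was 112 CPM for Hoxc, 47.7 for Hoxa, 7.55 for Hoxd and 5.71 for Hoxb. Paralogs 6 to 9 held 66.2% of the Hox CPM in wild-type cord and 23.0% in muscle. Paralogs 10 to 13, the most tailward genes, held 12.8% in cord, with single libraries from 4.12 to 24.3%, and 65.5% in muscle.

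Wild-type cord against wild-type cortex was tested to place the members on the head-to-tail axis, together with muscle against cord. No member passed the filter on low counts within cortex, so the 33 tested had entered through cord or muscle, where they are high. That 32 of them were called higher in cord (beside 32.5% of all genes called higher and 64.5% called in all) is therefore set by the filter, and nothing is read from it. The remaining one was Hoxa13 (adjusted p = 0.0555 by edgeR). Hoxb4 had the most cortical counts (27 in the 5 wild-type libraries, 0.0743 ± 0.0180 CPM) and 9.82 ± 0.599 CPM in wild-type cord, a log2 difference of 6.96 (SE 0.18). Hoxb8 had 79730 counts in the 6 wild-type cord libraries and 2 in the 5 of cortex. Another 15 members had no count in wild-type cortex. Set against 3 counts over that group, the limit a count of 0 allows for counting error, Hoxb9 was at least 9320-fold, Hoxc8 at least 6190-fold and Hoxa9 at least 4900-fold higher in cord on unscaled CPM.

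Between wild-type muscle and cord, 31 of 33 members differed, where 88.6% of all genes were called, so the count by itself is near the background. Of these, 26 were lower in muscle and 5 higher, beside 49.6% and 38.9% of all genes, with a median log2 difference of −1.94 beside −0.29 over all genes. The 5 higher ones were Hoxa13 (5.85, SE 0.93), Hoxc10 (2.00, SE 0.30, adjusted p = 7.51e-06), Hoxc11 (1.75, SE 0.71, adjusted p = 0.034), Hoxa11 (1.13, SE 0.49, adjusted p = 0.0437) and Hoxc9 (0.30, SE 0.06, adjusted p = 0.00024). Hoxa13 did not pass the filter within cord, where 9 of 18 libraries had no count. It had entered through muscle, where it is high, so nothing is read from its call. With each library left out, its difference ran from 5.54 to 9.78. Among the lower ones, Hoxb8 had 147, 150 and 155 CPM (lowest, median and highest of 6) in cord and 0.303, 0.435 and 0.487 CPM in muscle. These CPM were scaled within each tissue. Its log2 difference of −7.31 (SE 0.11, adjusted p = 2.57e-19 by edgeR) came from the wild-type libraries scaled together. It can therefore not be derived from the CPM, and the same holds for the other members. Hoxb9 differed by −6.12 (SE 0.11). The groups lay far apart for both. Hoxd1 had no count in wild-type muscle, which, against 3 counts over the group, makes it at least 111-fold higher in cord. Hoxd1 and Hoxd11 did not pass the filter within muscle and had entered through cord, so nothing is read from their calls. Hoxa10 (0.26, SE 0.39) and Hoxc4 (−0.20, SE 0.11) did not pass the test. When libraries were scaled by their totals only, the median of all genes moved to −1.57, and Hoxa11 and Hoxc9 turned to −0.16 and −0.98. Hoxc11 had 0.45 (adjusted p = 0.553) there. With DESeq2 neither Hoxa11 (adjusted p = 0.065) nor Hoxc11 (adjusted p = 0.0635) was called, and with RIN as a covariate Hoxa11 was not (adjusted p = 0.0563). Both calls were also lost without cord replicate 1, 3 or 6 or muscle replicate 3, 4, 5 or 6, and that of Hoxa11 without muscle replicate 1 (adjusted p up to 0.0801 and 0.064).

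Within the cord the tailward paralogs differed widely between libraries of the same arm. Hoxc10, which directs lumbar motor neuron identity, had 30.9, 77.5, 18.9, 74.2, 21.8 and 71.2 CPM in wild-type replicates 1 to 6. It had 47.1, 37.0, 34.2, 20.8, 23.5 and 41.3 CPM in the vehicle-treated transgenic ones and 45.7, 19.8, 6.68, 10.8, 51.5 and 37.0 CPM in the treated ones. The wild-type libraries fell into 3 high ones (2, 4 and 6) and 3 low ones (1, 3 and 5), with both sexes in each, and the arms overlapped. Hoxd10, its lumbar partner in motor neurons, ranged from 0.0341 CPM in treated replicate 4 to 48.8 CPM in wild-type replicate 2. Hoxd11 ranged from 0.0114 CPM in treated replicate 4 to 18.4 CPM in wild-type replicate 2, and Hoxc11 from 0 to 12.2 CPM in the same libraries. Wild-type replicate 2 was thus the highest for the most tailward genes, also with 4.58 CPM of Hoxc13, 1.42 CPM of Hoxa13 and 2.78 CPM of Hoxb13.

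RNA quality moved with part of this spread. The 3 cord libraries with the highest RNA integrity number (RIN), treated replicates 3 (8.3) and 4 (8.2) and wild-type replicate 3 (8.3), were the 3 lowest in Hoxc10. In treated replicates 1 to 6 the RIN was 7.4, 7.7, 8.3, 8.2, 7.1 and 7.5, the reverse of their order in Hoxc10. In the vehicle-treated arm the library with the highest RIN, replicate 4 (7.7), was also the lowest in Hoxc10. Replicate 2, with the lowest RIN of that arm (7.2), was not the highest. The high and low sets of wild-type libraries did not follow RIN in this way. Wild-type replicates 2, 5 and 6 all had 7.5, though 2 and 6 were in the high set and 5 in the low set. Wild-type replicate 1, the lowest in RIN (7.2), was in the low set. Over the 18 libraries, with arm means removed, Hoxc10 and RIN had a Pearson r of −0.77 (permutation p = 0.00128) and a Spearman rho of −0.73 (permutation p = 0.00228), a single relation computed after seeing the data. Without the 2 libraries farthest in RIN, r was −0.64. The part of RNA quality in the spread was not tested beyond these values.

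Measured as the SD of log2 CPM within arms, Hoxc12 (3.62), Hoxc11 (3.09), Hoxc13 (2.78), Hoxd11 (2.77), Hoxd10 (2.27) and Hoxa11 (2.26) varied more than 99% of the 20307 genes tested in cord, whose median SD was 0.178. Some of these lie near the floor: Hoxc12 had no count in 7 of 18 libraries, Hoxc13 in 2, and Hoxc11 and Hoxa11 in 1 each. The genes they were ranked among were not matched for level. Hoxa10 (1.11), Hoxd13 (1.07), Hoxc10 (0.921) and Hoxd9 (0.705) lay above the 93rd percentile. The 8 Hoxb genes tested lay near the middle, from 0.168 for Hoxb7 to 0.217 for Hoxb5. Hoxd8 (0.107) and Hoxa3 (0.0850) were among the steadiest, at the 26.0th and 15.2th percentile. In muscle, the SD of Hoxc10 was 0.171, at the 39.7th percentile of the 16949 genes tested, whose median was 0.218. That of Hoxd10, with 4 to 57 counts per muscle library, was 1.09, at the 96.9th percentile.

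**Figure D2:**
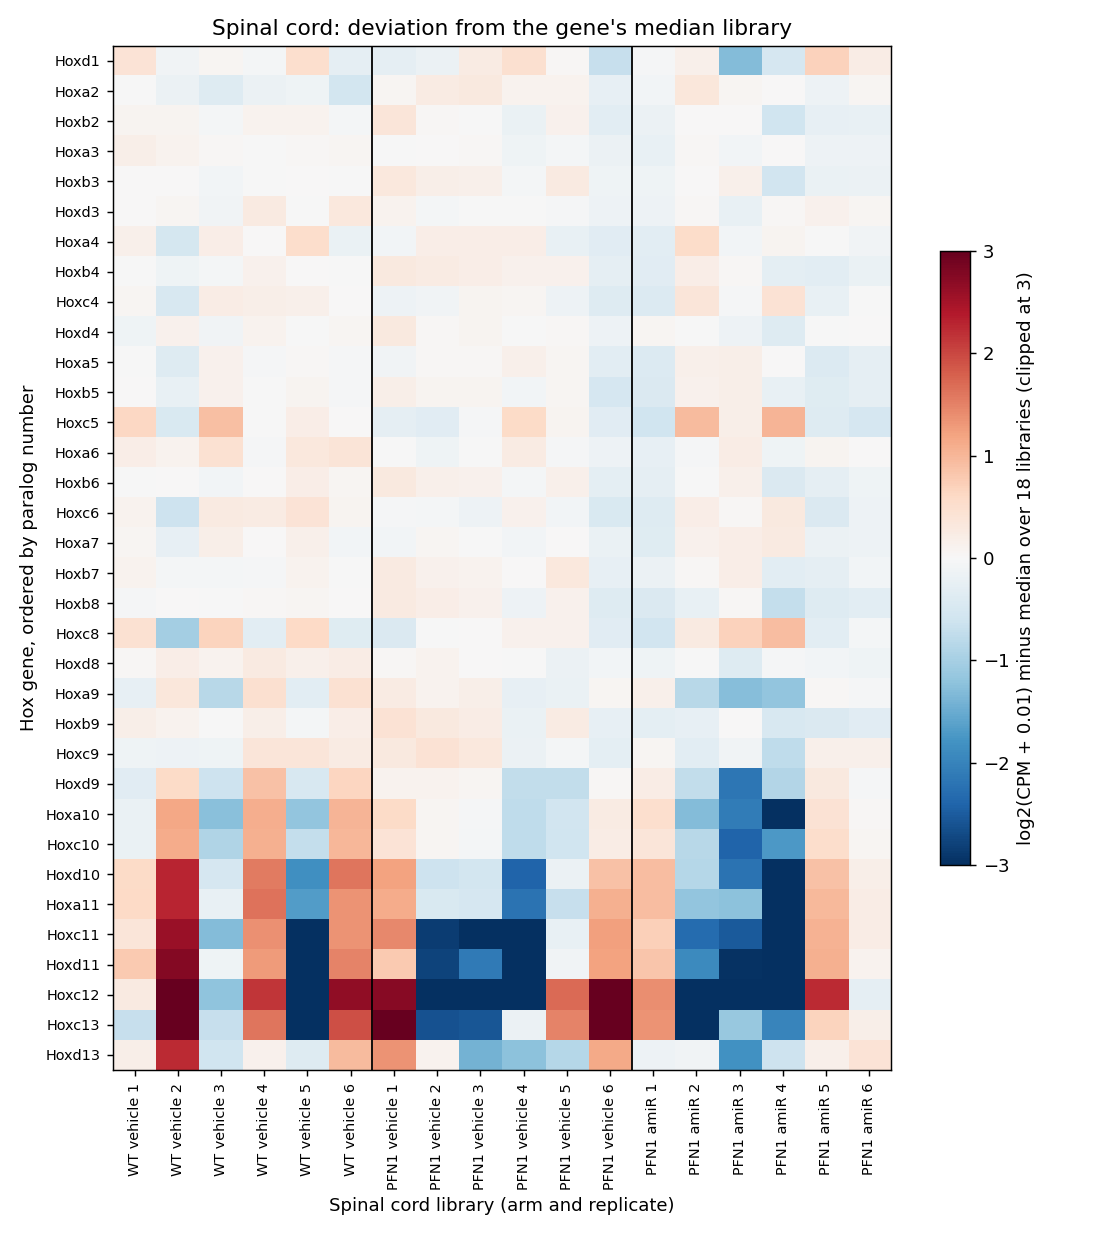
Hox genes tested in spinal cord (rows, by paralog number) in the 18 libraries (columns, by arm and replicate), coloured by log2(CPM + 0.01) minus the gene's median over libraries, clipped at 3. The strong colours lie in paralogs 9 to 13, where wild-type replicate 2 is high and treated replicates 3 and 4 are low, and the Hoxb genes stay pale.

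Some members varied together with Hoxc10, most of them tailward, and others varied against it. Each member's log2 CPM was correlated with that of Hoxc10 over the 18 cord libraries after the arm means were removed, with a permutation test within arms over 34 pairs. Of these, 16 passed at an adjusted p under 0.05: 11 with the sign of Hoxc10 and 5 against it. Hoxa9 had a Pearson r of 0.96 (permutation p = 1e-05, the smallest the resamples can give, adjusted p = 0.00017, Spearman rho 0.95), and Hoxd9 also 0.96 (permutation p = 1e-05, adjusted p = 0.00017, rho 0.96). Hoxa10 had 0.95 (permutation p = 5e-05, adjusted p = 0.00034, rho 0.98). The other 8 on this side were Hoxd10 (r 0.75), Hoxd11 (0.73), Hoxc11, Hoxc12 and Hoxd13 (0.72 each), Hoxa11 (0.70), Hoxd4 (0.64) and Hoxc13 (0.57), with adjusted p from 0.00034 to 0.0266. Hoxd4 is the one among them with a low paralog number, and 52.3% of its exon bases overlap other genes on its strand.

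Against Hoxc10 ran Hoxc8, a brachial gene in motor neurons, with r of −0.91 (permutation p = 5e-05, adjusted p = 0.00034, rho −0.95). Its levels mirrored those of Hoxc10: 67.0, 23.8, 76.6, 39.3, 73.5 and 37.6 CPM in wild-type replicates 1 to 6. It had 36.0, 48.5, 48.6, 53.2, 53.5 and 38.1 CPM in the vehicle-treated transgenic and 32.6, 58.6, 78.9, 92.2, 38.9 and 46.9 CPM in the treated replicates. The 3 wild-type libraries high in Hoxc10 were the 3 lowest in Hoxc8. Hoxa7 (r −0.83), Hoxa5 (−0.80), Hoxc5 (−0.74) and Hoxc6 (−0.66) also passed, with adjusted p from 0.00215 to 0.0142. No Hoxb gene did: r was between −0.55 (Hoxb5) and 0.07 (Hoxb2) for the 8 tested.

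Without the 2 libraries farthest in Hoxc10 (treated replicate 3 and wild-type replicate 3), all 16 kept their sign, and r was 0.96 for Hoxa9, 0.95 for Hoxd9 and −0.92 for Hoxc8. Without the 4 libraries with conflicting names, 18 of 34 members passed. With RIN removed as well as the arm means, a choice made after seeing the data, 16 passed, among them 13 of the first 16, and all of these kept their sign. Hoxa9 then had r of 0.90, Hoxd9 0.92, Hoxa10 0.89 and Hoxc8 −0.88. Hoxa11, Hoxc6 and Hoxd4 were lost (adjusted permutation p of 0.0646, 0.103 and 0.0813), and Hoxa4, Hoxb5 and Hoxb7 passed, each against Hoxc10. Because the wild-type libraries formed 2 sets, the relation was also taken over the 12 transgenic libraries alone, a choice made after seeing the data. It then passed for 6 members: Hoxa9 (r 0.96), Hoxd9 (0.96), Hoxa10 (0.93), Hoxd13 (0.69), Hoxc8 (−0.92) and Hoxa5 (−0.86), with adjusted permutation p from 0.00085 to 0.0282. None of the 8 motor neuron markers followed Hoxc10 (adjusted permutation p of at least 0.698, also chosen after seeing the data). In muscle 1 of 30 members did: Hoxc11, its neighbour on chromosome 15, with r of 0.86 over 17 libraries (permutation p = 0.00013, adjusted p = 0.0039). The rho of Hoxc11 was 0.73 with an adjusted permutation p of 0.0774, and no member passed once sex was removed as well. The labels give no cord level to set beside these relations.

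**Figure D3:**
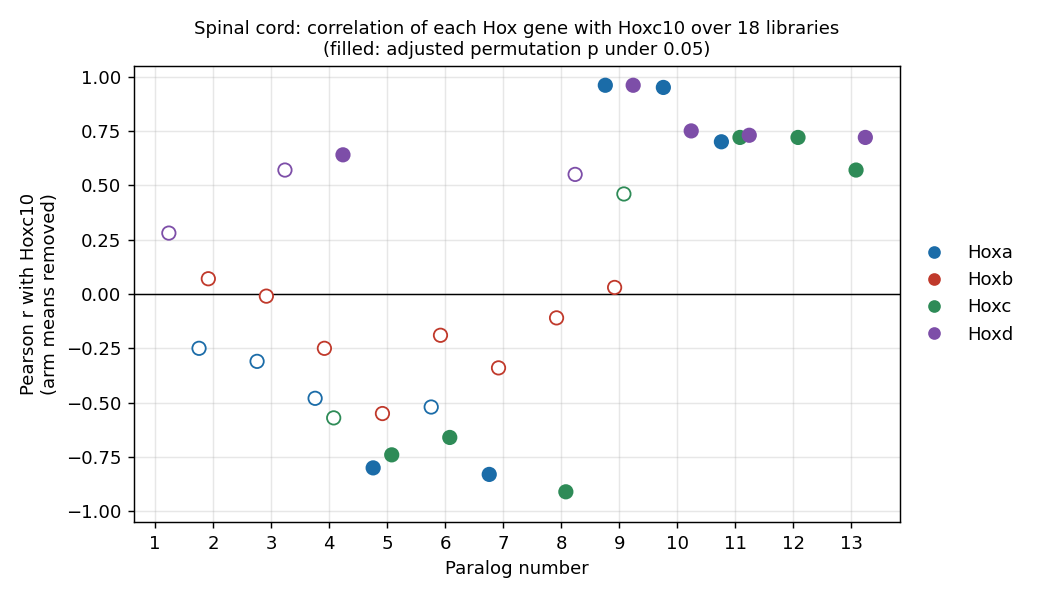
Pearson r of tested Hox genes with Hoxc10 over the 18 spinal cord libraries, with arm means removed, against paralog number; colours mark the cluster and filled points an adjusted permutation p under 0.05. The points run from −0.91 for Hoxc8 up to 0.96 for Hoxa9 and Hoxd9 at the next paralog number, and the Hoxb points stay near or below 0.

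Vehicle-treated transgenic cord was compared with wild-type cord for the effect of the transgene. Here 3 of 35 members (8.57%) were called, beside 36.8% of all genes. Hoxa2, which patterns the hindbrain, was higher, and Hoxd8 and Hoxa6 were lower. The median log2 change of the 35 was −0.13 beside 0.00 over all genes, with 9 members above 0 and 26 below. In such bulk samples, fewer cells of a type and less RNA per cell cannot be told apart.

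Hoxa2 had 2.30, 3.00 and 3.35 CPM (lowest, median and highest of 6) in wild-type cord. It had 2.87, 3.64 and 4.15 CPM with the transgene and vehicle, and 3.06, 3.47 and 4.28 CPM with the amiR. In 5 of 6 vehicle-treated libraries it lay above the wild-type mean, and the groups overlapped. Its log2 change was 0.33 (SE 0.10, adjusted p = 0.0148 by edgeR), and 0.23 (adjusted p = 0.134) without the mice older than 36 weeks. Hoxd8 had 50.8, 55.8 and 59.9 CPM in wild-type and 44.2, 49.6 and 53.2 CPM in vehicle-treated transgenic cord. All 6 transgenic libraries lay below the wild-type mean, with an overlap between the ranges. Its log2 change was −0.18 (SE 0.06, adjusted p = 0.0269). The call was lost with library totals as the scale (−0.09, adjusted p = 0.285), and without wild-type replicate 2, 4 or 6 or vehicle replicate 5 or 6 (adjusted p up to 0.0708). Hoxa6 went from 3.17, 3.91 and 4.49 CPM to 2.95, 3.20 and 3.84 CPM. The log2 change was −0.26 (SE 0.10, adjusted p = 0.0478), and this call was lost when any 1 of 13 of the 18 libraries was left out (adjusted p up to 0.12). These were wild-type replicates 1, 3, 5 and 6, all vehicle replicates but 4, and treated replicates 2, 4, 5 and 6, which enter through the shared spread. Of the 3, only Hoxa2 was called without the 4 libraries with conflicting names (0.37, adjusted p = 0.013). There Hoxd8 had −0.11 (adjusted p = 0.162) and Hoxa6 −0.24 (adjusted p = 0.129).

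Markers of other cells moved in the same libraries. All 8 motor neuron markers fell (median log2 change −0.87), their summed level going from 234.9 to 275.7 CPM over the wild-type libraries to 45.18 to 181.5 over the vehicle-treated ones. Of 7 microglia markers 6 rose, from sums of 187.8 to 262.0 CPM to 547.8 to 661.4. Of 4 astrocyte markers tested 2 rose, with sums of 1750 to 3247 CPM in wild-type and 5210 to 5858 in vehicle-treated transgenic libraries, and of 6 general neuron markers 5 fell, with sums of 5036 to 5817 against 3404 to 3988. Their part in the Hox changes was not tested.

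Treated and vehicle-treated transgenic cord differed in 2 of 35 members, Hoxb8 and Hoxb9, a share of 5.71% beside 5.11% of all genes, which is near the background. Both genes are neighbours on chromosome 11 (Hoxb9 at 96271457 to 96276595, Hoxb8 at 96281905 to 96285315), and both were lower with the amiR. Hoxb8 had 115, 163 and 179 CPM in vehicle-treated and 91.3, 117 and 152 CPM in treated cord. Wild-type cord held 147 to 155 CPM, a far narrower range. All 6 treated libraries lay below the vehicle mean, and the ranges overlapped. The log2 change was −0.37 (SE 0.10, adjusted p = 0.0359 by edgeR).

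Hoxb9 had 62.5, 87.2 and 99.9 CPM in vehicle-treated and 53.4, 59.7 and 74.8 CPM in treated cord, beside 71.2, 81.2 and 85.2 CPM in wild-type cord. Again all 6 treated libraries lay below the vehicle mean, with overlap. The log2 change was −0.43 (SE 0.09, adjusted p = 0.0194). Over all members the median was −0.14, with 26 of 35 below 0, beside 0.00 over all genes. Neither call was stable. Without the 4 libraries with conflicting names Hoxb8 had −0.35 (adjusted p = 0.084) and Hoxb9 −0.38 (adjusted p = 0.0739), and Hoxb4 was called in their place (−0.38). Without mice older than 36 weeks the values were −0.43 (adjusted p = 0.0811) and −0.45 (adjusted p = 0.0836). The call of Hoxb9 was lost without vehicle replicate 5 or treated replicate 4 (adjusted p up to 0.0594). That of Hoxb8 was lost without any 1 of 8 libraries, namely vehicle replicates 1 to 5 and treated replicates 2, 4 and 5 (adjusted p up to 0.1). Of the 8 motor neuron markers 4 were higher in the treated arm, with sums of 185.4 to 457.5 CPM, and their part was not tested.

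Treated transgenic cord was also compared with wild-type cord, the same wild-type and treated libraries as in the comparisons above. In this comparison 4 of 35 members were called, all lower, beside 11% of all genes called lower and 25.5% called in all. The median was −0.19 beside 0.01 over all genes, with 31 of 35 members below 0. Hoxd8 had 37.9, 46.2 and 48.9 CPM in treated against 50.8, 55.8 and 59.9 CPM in wild-type cord. These ranges did not overlap, though how many of all genes lie apart in this way was not counted, here or in muscle. The log2 change was −0.29 (SE 0.06, adjusted p = 0.00183), and it held under each of 28 alternatives, including the one without the 4 libraries with conflicting names (−0.36, adjusted p = 0.000629).

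The other 3 were Hoxb9 (−0.39, SE 0.09, adjusted p = 0.00492), Hoxb8 (−0.35, SE 0.10, adjusted p = 0.0129) and Hoxa3 (−0.16, SE 0.05, adjusted p = 0.0312). Hoxa3, a hindbrain and pharyngeal gene, had 9.59, 10.01 and 10.9 CPM in wild-type and 8.33, 8.87 and 9.87 CPM in treated cord. It was lower than the wild-type mean in 6 of 6 libraries, Hoxb9 in 6 of 6 and Hoxb8 in 5 of 6, each with overlapping ranges. The call of Hoxa3 was lost when any 1 of 7 libraries was left out (wild-type replicates 1, 2, 5 and 6, treated replicates 1, 5 and 6, adjusted p up to 0.0749). With the library names in place of the titles for the 4 conflicting libraries, only Hoxd8 was called (−0.35, adjusted p = 0.000107). Hoxc10, with its wide spread, was called in no cord comparison: its mean was 49.1 ± 28.0 CPM in wild-type cord, 34.0 ± 10.2 CPM with the transgene and vehicle, and 28.6 ± 18.8 CPM with the amiR.

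**Figure D4:**
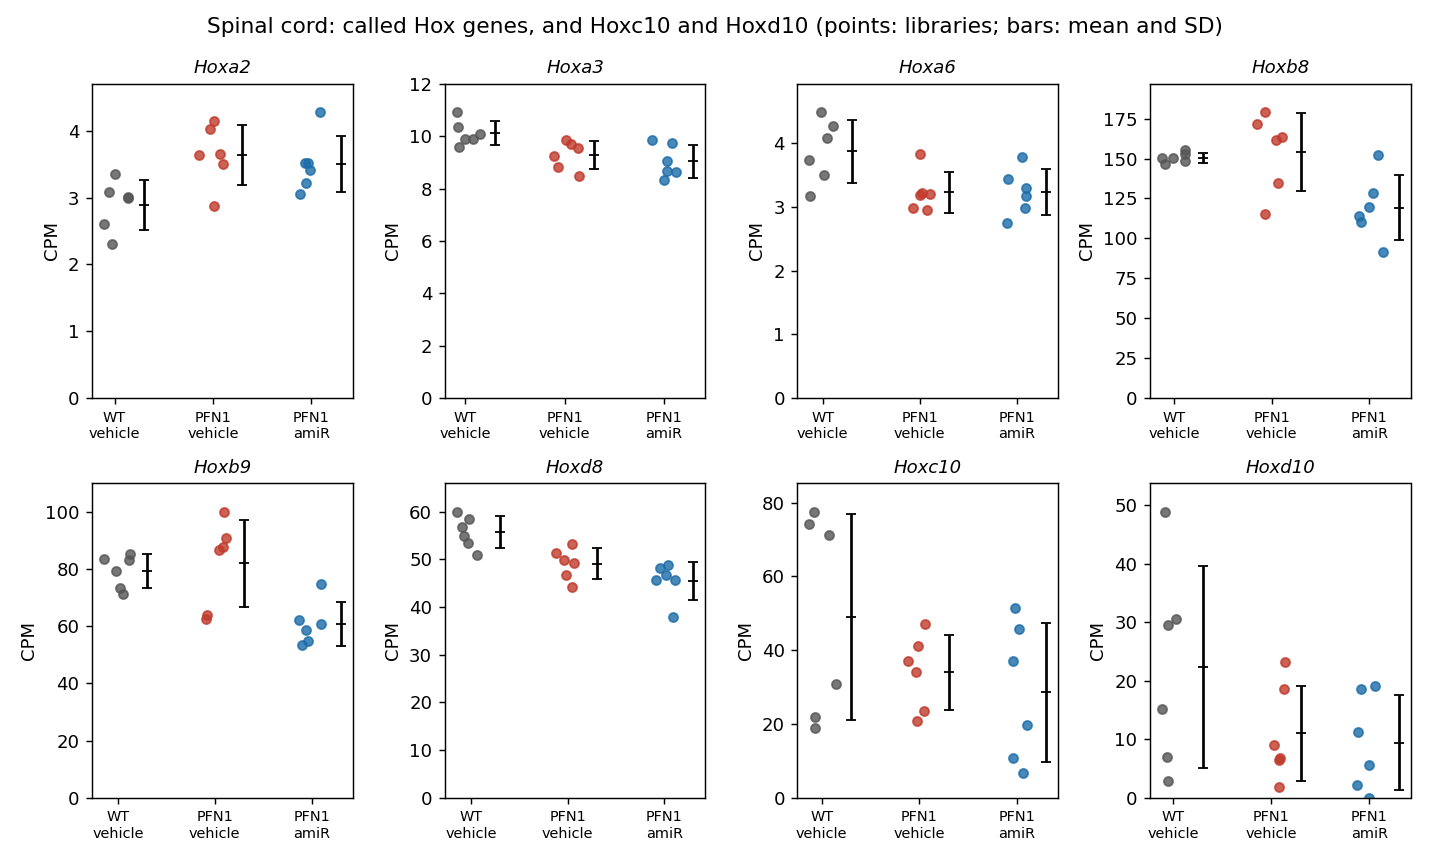
CPM of the 6 Hox genes called in a spinal cord comparison, and of Hoxc10 and Hoxd10, in wild-type, vehicle-treated transgenic (PFN1 vehicle) and treated transgenic (PFN1 amiR) libraries; points are libraries (n = 6 per arm), bars mean and SD. Hoxd8 in treated cord lies wholly below wild-type cord, the other called genes overlap, and Hoxc10 and Hoxd10 spread widely within each arm.

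To show the stretch before the start of genes named above, 250 bases upstream of Hoxb8 (chr11:96281655-96281904, plus strand) and of Hoxa2 (chr6:52164832-52165081, minus strand) are given 5′ to 3′ on the gene's strand, from RefSeq on GRCm38.p6. Capitals mark TTTATNG, a core bound by caudal-type and posterior Hox proteins, TGATTNAT, bound by Hox with Pbx, and TGACAG, bound by Meis, each searched on both strands.
Hoxb8: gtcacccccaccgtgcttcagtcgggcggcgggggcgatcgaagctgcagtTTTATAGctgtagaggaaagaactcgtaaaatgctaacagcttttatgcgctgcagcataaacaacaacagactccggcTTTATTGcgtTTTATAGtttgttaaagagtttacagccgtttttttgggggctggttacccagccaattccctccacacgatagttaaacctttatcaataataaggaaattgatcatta
Hoxa2: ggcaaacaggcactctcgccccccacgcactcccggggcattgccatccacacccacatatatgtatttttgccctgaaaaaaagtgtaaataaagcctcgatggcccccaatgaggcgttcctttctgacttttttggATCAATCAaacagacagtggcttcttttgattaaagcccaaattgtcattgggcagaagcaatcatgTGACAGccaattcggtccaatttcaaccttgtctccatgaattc
Hoxb8 holds 3 matches of TTTATNG, of which 2 overlap TATAAA on the other strand, and Hoxa2 holds 1 match of TGATTNAT and 1 of TGACAG. Over the 32851 RefSeq promoter windows (250 bases before to 50 after the start), 10.9% hold TTTATNG, 3.22% TGATTNAT and 19.2% TGACAG. Among the 24 windows that matched 22 of the 39 members, each of the 3 motifs was found in 2. The Hox windows had a median GC content of 57.7% and 14.5 CpG dinucleotides, beside 52.7% and 7 over all windows. A match is a run of letters, not a site shown to be bound.

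In muscle, vehicle-treated transgenic mice differed from wild-type in 6 of 31 members (19.4%), beside 50.5% of all genes. Hoxc11, Hoxa4 and Hoxa7 were higher, and Hoxc10, Hoxa13 and Hoxa10 were lower, so that neighbours in the same cluster went opposite ways. The median of the 31 was −0.08 beside 0.01 over all genes. Hoxc10 had 71.5, 86.7 and 99.3 CPM (lowest, median and highest of 6) in wild-type muscle and 59.0, 52.7, 70.4, 67.7 and 70.0 CPM in the 5 vehicle-treated transgenic libraries. The groups did not overlap. Its log2 change was −0.47 (SE 0.07, adjusted p = 4.34e-05 by edgeR).

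Hoxc11, which lies 5′ of Hoxc10 in the cluster, went the other way. It had 4.78, 6.96 and 7.79 CPM in wild-type and 9.03, 6.67, 10.6, 9.70 and 11.1 CPM in vehicle-treated transgenic muscle. All 5 transgenic libraries lay above the wild-type mean, with replicate 2 inside the wild-type range. The log2 change was 0.50 (SE 0.10, adjusted p = 0.000497). Hoxa7 had 8.34, 8.65 and 9.21 CPM in wild-type and 9.82, 11.7, 9.87, 10.6 and 9.75 CPM in vehicle-treated transgenic muscle, with no overlap, a log2 change of 0.25 (SE 0.06, adjusted p = 0.00228). Hoxb7 did not overlap either, but did not pass the test (−0.41, adjusted p = 0.0631). Hoxa4 rose from 0.677, 0.897 and 1.04 CPM to 1.46, 1.44, 1.33, 1.31 and 1.03 CPM, by 0.57 (SE 0.17, adjusted p = 0.0105), with the last library inside the wild-type range.

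Hoxa13, a gene of the limb ends, had 4.12, 5.09 and 6.43 CPM in wild-type and 3.11, 4.09, 3.72, 4.53 and 3.78 CPM in vehicle-treated transgenic muscle. Its log2 change was −0.43 (SE 0.12, adjusted p = 0.00658 by edgeR). Hoxa10 had 9.76, 11.2 and 12.5 CPM against 8.05, 9.66, 10.8, 9.93 and 8.54 CPM, a change of −0.26 (SE 0.08, adjusted p = 0.00999). For both, all 5 transgenic libraries lay below the wild-type mean and the ranges overlapped. The falls depended on the scale. With library totals only, the median of all genes moved to 0.35, Hoxc10 had −0.14 (adjusted p = 0.0801), Hoxa13 −0.09 (adjusted p = 0.503) and Hoxa10 turned to 0.07, while Hoxa4 (0.91), Hoxc11 (0.84) and Hoxa7 (0.58) stayed higher. The share of paralogs 10 to 13 in the Hox CPM was 65.5 ± 3.00% in wild-type muscle, 58.5 ± 2.55% with the transgene and vehicle, and 62.5 ± 2.43% with the amiR.

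In the same muscle libraries the fibre genes fell and genes of other cells rose. All 5 fibroblast markers were higher, with sums of 902.4 to 1865 CPM against 233.2 to 704.5 in wild-type muscle, and all 4 satellite cell markers were higher. The 3 muscle fibre markers fell, from sums of 66700 to 93230 CPM to 31940 to 49360. Their part in the Hox changes was not tested.

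Treated against vehicle-treated transgenic muscle gave no called member among 31 by edgeR, beside 1.12% of all genes. At an unadjusted p under 0.05 there were 2, Hoxc10 and Hoxd3, beside 19.1% of all genes. Hoxc10 had 69.4, 70.8, 64.9, 86.1, 82.1 and 79.3 CPM in the treated libraries, each above the vehicle mean of 64.0, with a log2 difference of 0.26 (SE 0.07, adjusted p = 0.0688). DESeq2 called it, and called no other member. Against wild-type muscle, the same treated libraries differed in 5 of 31 members, beside 35.2% of all genes. Hoxc11 was higher (7.16, 9.67 and 11.3 CPM; log2 change 0.54, SE 0.09, adjusted p = 0.000344), as were Hoxa7 (9.75, 10.7 and 11.1 CPM; 0.28, SE 0.06, adjusted p = 0.00111) and Hoxa4 (0.794, 1.44 and 1.82 CPM; 0.66, SE 0.16, adjusted p = 0.00511). The ranges of Hoxa7 did not overlap, and those of Hoxc11 and Hoxa4 did. Hoxc10 was lower by −0.21 (SE 0.07, adjusted p = 0.0212), and this was lost without wild-type replicate 3 or 6 or treated replicate 3 (adjusted p up to 0.0618). It was also lost with library totals (−0.01), without the sex term (adjusted p = 0.102), with RIN as a covariate (adjusted p = 0.12) and without mice older than 36 weeks (adjusted p = 0.101). Hoxb4 was lower (0.480, 0.730 and 1.19 CPM against 0.784, 1.19 and 1.36; −0.62, SE 0.21, adjusted p = 0.03), a call lost when any 1 of 7 libraries was left out (wild-type replicates 1, 4 and 5, treated replicates 1, 3, 4 and 5, adjusted p up to 0.0759). These 2 muscle comparisons share the treated libraries, and the comparisons with wild type share the wild-type ones. In treated muscle the fibroblast sums were 336.4 to 827.0 CPM and the fibre sums 43790 to 61210, and their part was not tested.

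**Figure D5:**
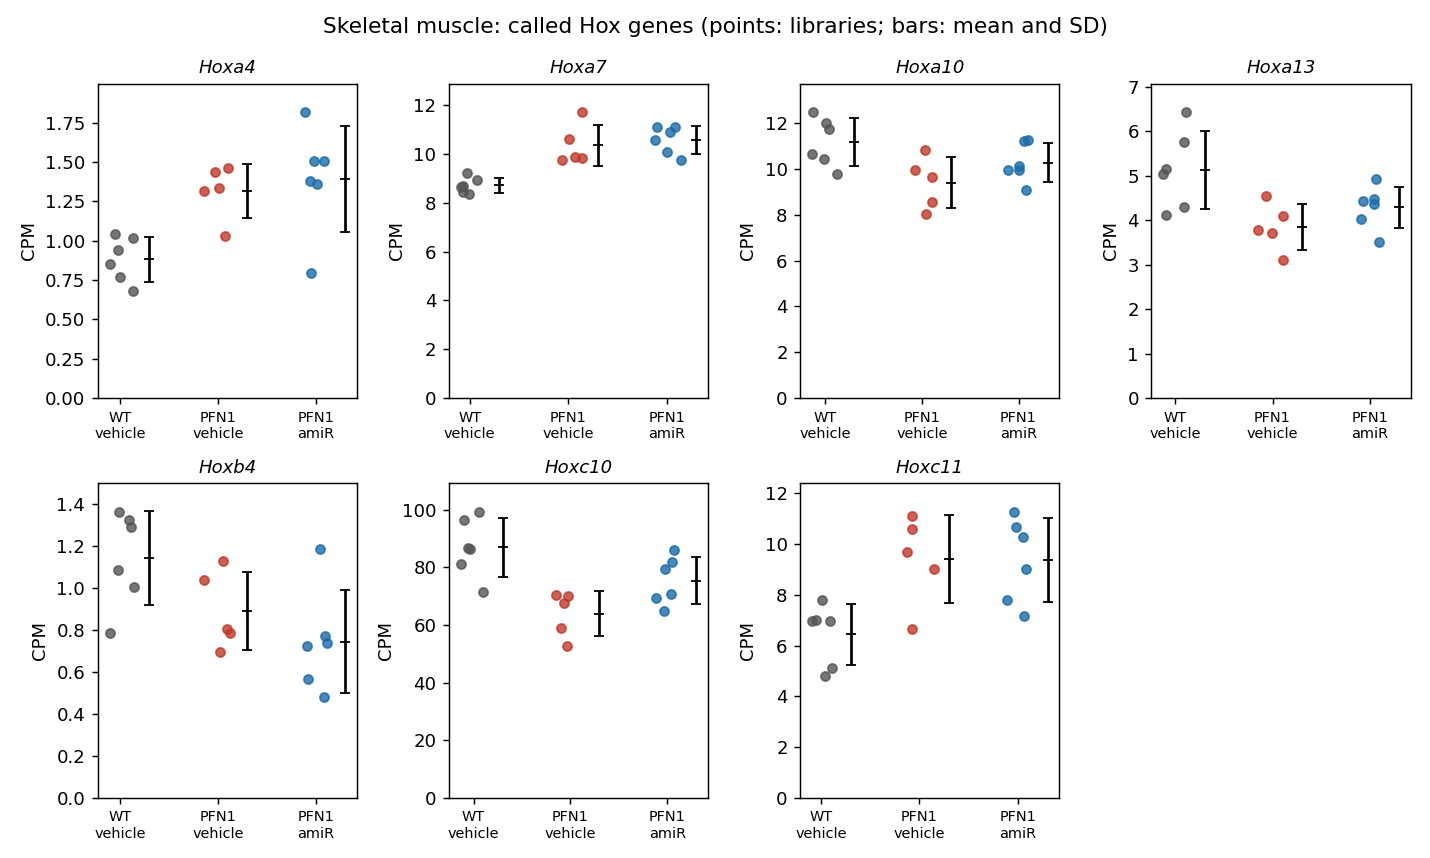
CPM of the 7 Hox genes called in a muscle comparison, in wild-type (n = 6), vehicle-treated transgenic (PFN1 vehicle, n = 5) and treated transgenic (PFN1 amiR, n = 6) libraries; points are libraries, bars mean and SD. Hoxa7 in both transgenic arms and Hoxc10 in the vehicle-treated arm lie clear of wild type, and Hoxc11 and Hoxa4 are higher with some overlap.

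The transgene effect itself was compared between cord and muscle in 1 joint model of all 52 libraries, cortex included. It differed for 3 of 36 members, beside 30.2% of all genes. Hoxd8 changed by −0.18 in cord and 0.34 in muscle (difference −0.55, SE 0.19, adjusted p = 0.0233 by edgeR), where the muscle value did not pass by itself (adjusted p = 0.14). Hoxa4 had −0.06 in cord and 0.57 in muscle (difference −0.66, SE 0.25, adjusted p = 0.044). Hoxb7 had 0.10 and −0.41 (difference 0.48, SE 0.19, adjusted p = 0.0498), and neither single value passed. The call was lost on leaving out any 1 of 14 of the 52 libraries for Hoxa4 and 35 for Hoxb7, cortex libraries among the latter. Neither was called with RIN as a covariate or without the filter, and Hoxb7 was also lost with library totals. The call of Hoxd8 was lost without muscle vehicle replicate 3 or 4 (adjusted p up to 0.0825).

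Genes that act with the Hox proteins or on their clusters were counted for the same comparisons. In vehicle-treated transgenic against wild-type cord, of the 9 TALE cofactors, homeodomain proteins that bind DNA together with Hox proteins, none was higher and 2 were lower, Pbx3 (−0.26, SE 0.07) and Meis2 (−0.23, SE 0.07). Of 18 Polycomb subunits 4 were higher and 2 lower, among them Ezh2 (0.34, SE 0.07), the methyltransferase of PRC2, Ring1 (0.34, SE 0.06) and Cbx6 (−0.37, SE 0.06). Of 13 retinoic acid genes 2 were higher, among them Cyp26b1 (0.46, SE 0.17), which breaks retinoic acid down. With treatment, the TALE, Polycomb and retinoic acid lists had no called gene in cord, and of 10 Trithorax and demethylase genes 1 was higher, Dpy30 (0.19, SE 0.05), beside 5.11% of all genes. In muscle, the transgene left 3 of 8 TALE cofactors higher and 2 lower, among them Pbx3 (0.47, SE 0.09) and Pknox2 (−0.46, SE 0.08). There 5 of 18 Polycomb genes were higher and 4 lower, with Pcgf2 at 1.11 (SE 0.15) and Phc1 at −0.57 (SE 0.07). The shares called in cord were 22.2% for TALE and 33.3% for Polycomb, beside 36.8% over all genes. In muscle the shares were 62.5% and 50.0%, beside 50.5%. The transgene effect on Pbx3, downward in cord and upward in muscle, differed between the tissues (−0.76, SE 0.28, adjusted p = 0.0343 by edgeR).

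The clusters also hold microRNA genes that target Hox transcripts. Their mature sequences are shown with the seed (bases 2 to 8) in capitals, from RefSeq on GRCm38.p6, because they lie between the members and pair with some of them. Mir196a-1 lies on chromosome 11 and Mir196a-2 on chromosome 15, with the same mature sequence, Mir196b on chromosome 6, Mir10a on chromosome 11 and Mir10b on chromosome 2.
mmu-miR-196a-5p: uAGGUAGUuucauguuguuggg
mmu-miR-196b-5p: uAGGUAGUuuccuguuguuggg
mmu-miR-10a-5p: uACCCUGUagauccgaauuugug
mmu-miR-10b-5p: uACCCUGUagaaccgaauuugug
The first 2 share a seed, as do the last 2. The seed match of miR-196, ACTACCT, occurs in the longest annotated 3′ UTR of 9 of the 39 members, among them Hoxc8 and Hoxa7, which both ran against Hoxc10 in cord, and that of miR-10, ACAGGGT, in 4. The sites below, from the same build, have in capitals the bases that pair with miR-196a without gaps, 12 of 22 for Hoxc8 and 14 of 22 for Hoxa7.
Hoxc8 site: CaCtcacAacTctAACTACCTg
Hoxa7 site: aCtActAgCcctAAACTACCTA
Mature microRNAs were not measured in these poly(A) libraries.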

How the data were processed

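Poly(A) RNA was sequenced as paired ends from 52 libraries. The deposited values are expected counts for each gene without normalization. Per the submitters' processing notes, the tools were STAR 2.7.2d, RSEM 1.3.2, bcl2fastq 2.20 and DESeq2 1.34.0, with the builds GRCm38 and GRCh38. The sources used here do not name an annotation release. Features other than mouse genes took 0.167% or less of each library and were left out of library sizes.

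The deposited estimated counts were rounded. A separate model per tissue was fitted in edgeR 4.0.16 under R 4.3.3: filterByExpr by arm, TMM scaling, a quasi-likelihood F test with arm and sex, Benjamini-Hochberg over all genes tested, threshold 0.05. Tissues were compared among the wild-type libraries, and the transgene effects in a joint model. CPM are TMM-scaled within each tissue, log2 CPM carry a prior count of 0.5, and levels per length use exon unions of GENCODE M21. The wild-type tissue fit and the joint model were each scaled over their own libraries. Correlations used 100000 resamples within arms, two-sided (numpy 2.4.6). The code was tested on simulated data.

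Members were taken by symbol, and they and the other lists were chosen with earlier results of these data known. Named are all called members and, of other lists, up to 4 called genes with the smallest adjusted p; cord values of Hoxc8, Hoxd10, Hoxd11, Hoxc11, Hoxc13, Hoxa13 and Hoxb13 were added for the relation with Hoxc10 after their values were seen. The labels do not say that libraries come from separate animals, so p-values measure the spread between these libraries. Libraries of a group differed beyond counting error. Values of some genes are not reported here, though counts and medians over lists include them. Alternatives were DESeq2 1.42.0, library totals, no filter, no sex term, RNA integrity (RIN) as a covariate, no mice over 36 weeks, a replicate block, the library names or omission of the 4 conflicting libraries, each library left out, and, chosen after seeing the data, Hoxc10 as a covariate, the relation in transgenic libraries alone and the relation with RIN removed.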

Additional observations from a re-analysis of the deposited data

Results flagged for a closer look

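Within groups of 4 to 6 libraries, a library was singled out where its gap to the nearest other library was large against the range of the group (Dixon's critical value for the group size). This was met in 12 of 192 groups of Hox genes and libraries, and chance gives about 1 in 20. In spinal cord, wild-type replicate 2 stood out in 5 genes: it was highest for Hoxc13 (4.58 CPM, next 0.476, gap 0.896 of the range), Hoxc12 (4.72 CPM, next 1.01, gap 0.787) and Hoxd13 (0.559 CPM, next 0.222, gap 0.689). The same library was lowest for Hoxa5 (20.1 CPM, next 25.7, gap 0.649) and Hoxc4 (8.31 CPM, next 11.6, gap 0.633). Hoxb3 was lowest in wild-type replicate 3 (gap 0.765). Hoxa6 was highest in vehicle-treated transgenic replicate 4 (gap 0.690) and Hoxb4 lowest in replicate 6 of that arm (gap 0.651). Hoxd8 was lowest in treated replicate 3 (37.9 CPM, next 45.6, gap 0.699).

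In muscle, Hoxc5 was lowest in wild-type replicate 2 (1.56 CPM, next 2.00, gap 0.856) and Hoxb9 lowest in wild-type replicate 3 (gap 0.627). Hoxb7 was highest in treated replicate 2 (gap 0.683).

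The transgene effect differed between spinal cord and muscle, by the interaction term of edgeR, for Hoxa4 (cord minus muscle −0.66, adjusted p = 0.044), Hoxd8 (−0.55, adjusted p = 0.0233) and Hoxb7 (0.48, adjusted p = 0.0498).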

How the results depend on the processing

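In cord, the 3 members called with the transgene were 1 with library totals, 1 with the library names and 1 without the 4 conflicting libraries, and 1 to 4 with each library left out. The 2 called with treatment were 1 without the sex term, 0 with RIN, 0 without mice over 36 weeks, 0 with the library names, 1 without the conflicting libraries and 1 with Hoxc10 as a covariate, and 0 to 3 with each library left out. For treated against wild-type cord the 4 were 7 with DESeq2 and 1 with the library names (left out: 3 to 6). In muscle, the 6 called with the transgene were 12 with library totals (left out: 6 to 9), where Hoxa10 turned to 0.07. The 0 with treatment were 1 with DESeq2 (left out: 0 to 1), and the 5 of treated against wild type 3 with RIN (left out: 4 to 9). The 3 interaction calls were 1 without a filter (left out: 0 to 3). Between wild-type tissues the counts were 27 to 33 (muscle minus cord) and 32 to 34 (cord minus cortex) with libraries left out, and with library totals Hoxa11 turned to −0.16 and Hoxc9 to −0.98 in muscle minus cord. The 16 relations with Hoxc10 in cord were 6 in the transgenic libraries alone and 16 with RIN removed, and the 1 in muscle 0 with sex removed. In these counts of calls the cause was not tested. Hoxa4, Hoxa7 and Hoxc11 against wild type in muscle and Hoxd8 in treated against wild-type cord were called under every alternative run. Library totals moved the median of all genes in muscle to 0.35, −0.13 and 0.20 (transgene, treatment, treated against wild type).

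The replicate numbers did not pair the libraries: the correlation of same-numbered libraries was −0.108 to 0.292 for cord, −0.198 to 0.382 for muscle and −0.271 to 0.447 for cortex. With the replicate block, the members called were 2, 0 and 3 in the 3 cord comparisons (transgene, treatment, treated against wild type) and 5, 0 and 6 in muscle. In cortex the members had too few counts for a test. Its libraries held 67.5 to 90.45 M counts, beside 73.22 to 109.3 M in cord and 66.48 to 111.9 M in muscle.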

Other observations

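Noncoding genes within the clusters were measured beside the members. Hoxb3os, antisense to Hoxb3 and Hoxb2, was lower in treated than in vehicle-treated transgenic cord (log2 change −0.41, SE 0.11, adjusted p = 0.0388 by edgeR) and than in wild-type cord (−0.34, SE 0.11, adjusted p = 0.0282), in the cluster that holds Hoxb8 and Hoxb9. It shares 52.9% of the exon bases of Hoxb3, so their counts may not be independent. Hoxaas3, antisense to Hoxa7 and Hoxa3, was higher in vehicle-treated transgenic than in wild-type cord (0.47, SE 0.18, adjusted p = 0.0483) and muscle (1.19, SE 0.39, adjusted p = 0.0182), and higher in treated than in wild-type muscle (1.12, SE 0.38, adjusted p = 0.0322). Hoxa7, which it overlaps in 20.4% of its exon bases, was also higher in both muscle comparisons with wild type. Hoxaas2 was higher (1.40, SE 0.46, adjusted p = 0.0179) and Hoxa11os lower (−0.37, SE 0.13, adjusted p = 0.0319) in vehicle-treated transgenic than in wild-type muscle. Hoxaas2 and Hoxaas3 lie near the floor in muscle. The 6 wild-type muscle libraries held 22 counts of Hoxaas2 (0 to 10 each) and 24 of Hoxaas3 (1 to 7 each).

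Other regulators of position differed between the wild-type tissues. Evx1 and Evx2, homeobox genes beside the Hoxa and Hoxd clusters, had 510 and 363 counts in the 6 wild-type cord libraries and 2 and 4 in the 5 of cortex. Against cord, muscle held more of the limb genes Tbx15 (log2 difference 12.33, SE 0.39, adjusted p = 2.95e-15 by edgeR), Tbx4 (4.56, SE 0.15, adjusted p = 3.88e-15) and Prrx1 (4.08, SE 0.09, adjusted p = 1.3e-17). With the transgene, Tbx15 fell in muscle (−0.81, SE 0.06, adjusted p = 9.32e-08) and Prrx1 rose (0.51, SE 0.08, adjusted p = 8.08e-05).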
